A study of Homo sapiens with 6 samples.

Results

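The core circadian clock was examined in Kasumi-1 cells through 10 genes, namely CLOCK, ARNTL (the gene of the BMAL1 protein), PER1, PER2, PER3, CRY1, CRY2, NR1D1, NR1D2 and DBP. They were chosen by name, as the rows of the mRNA-seq table whose Ensembl identifier carries one of these symbols. All 10 were found among the 29810 genes listed, and all 10 were among the 12960 genes tested. The comparison was between 3 control cultures and 3 cultures incubated with 0.25 μM I3, an inhibitor of histone deacetylases (HDACs), both for 48 h. It asks whether I3 moved the transcripts of the clock.

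The circadian clock is a feedback loop of transcription that runs in most cells, blood progenitors included. CLOCK and BMAL1 bind as a pair to E-box sequences and switch on the PER, CRY, NR1D and DBP genes. PER and CRY proteins then block that pair, while the REV-ERB receptors made from NR1D1 and NR1D2 repress ARNTL together with the NCOR corepressors and HDAC3, and DBP carries the rhythm to other genes through D-box sequences. In a culture that is not synchronised the cells run out of phase, and a single time point gives a level and no rhythm. The sources used here do not say whether these cultures were synchronised.

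Kasumi-1 is a human acute myeloid leukemia line with the RUNX1-RUNX1T1 fusion, used here as a single line. The controls received the same concentration of DMSO per the methods, and the labels give only a control. The labels and the methods give 48 h, one legend of the study gives a longer time, and the name of the deposited table spells the compound differently. Myeloid blast markers were found in all 6 libraries, with KIT at 198 to 225 FPKM and MPO at 7740 to 8612 FPKM. Others were lower, with CD33 at 10.5 to 12.1 FPKM and RUNX1T1 at 14.1 to 17.0 FPKM. FPKM is the number of fragments of a gene scaled to the length of its exons and to the total of the library. The T cell genes CD3E and CD3D stayed at or below 0.179 and 1.09 FPKM, the B cell gene CD79A was at 0.897 to 1.90 FPKM, a level like that of PER1, and the epithelial gene EPCAM was at 28.2 to 31.6 FPKM with KRT8 at or below 0.0327 FPKM. Reads rebuilt from the values gave a depth of 17500320 to 18193371 reads per library. The libraries also differed in how the level of a gene followed the GC content of its transcripts, with a rank correlation over 12939 genes of -0.446 to -0.232 in control 1, I3 1 and I3 3, and of 0.262 to 0.446 in control 2, control 3 and I3 2. Control 1 stood apart, since 4015 tested genes had groups that did not overlap when it was left out, beside 2085 to 2741 when any other library was left out. With all 6 the count was 1257. That count is not directly comparable, since groups of 2 and 3 libraries separate more easily than groups of 3 and 3. The methods say in general that experiments were repeated, but neither they nor the labels say that the libraries of a group came from separate cultures, so the p-values measure the spread between these samples, which may be technical.

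The clock genes of the I3 cultures stood close to those of the control cultures. With limma and Benjamini-Hochberg adjustment over all tested genes, 0 of 10 passed the test, which asked for an adjusted p under 0.05 and a change of 0.58 or more on the log2 scale. By the same rule 0.0% of all 12960 genes passed. At an unadjusted p under 0.05, 1 of 10 clock genes was found, which was DBP with a lower level under I3, while 4.93% of all tested genes did so in either direction and 2.85% did so with a lower level. A second tool, voom on the rebuilt reads, also passed 0 clock genes, and it passed 0 of all 13606 genes it tested. The median log2 fold change of the 10 genes was 0.012 and that of all tested genes was 0.011. The log2 fold change is that of log2(FPKM + 0.5), I3 minus control, and understates the change of genes at low levels.

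The size of change that the data allow is given by the intervals. For 9 of the 10 clock genes the 95% interval of the log2 fold change lay inside -0.58 to 0.58, and DBP was the exception. For ARNTL, whose level is close to the pseudocount, this depended on the setting, since its interval was -0.66 to 0.75 with a pseudocount of 0.1 and -0.37 to 0.59 without I3 3. Of all 12960 tested genes, 10571 had an interval inside these limits. With the pseudocount of 0.5 the widest interval among those 9 genes was that of ARNTL, from -0.39 to 0.45, and the narrowest was that of CLOCK, from -0.019 to 0.33.

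**Figure D1:**
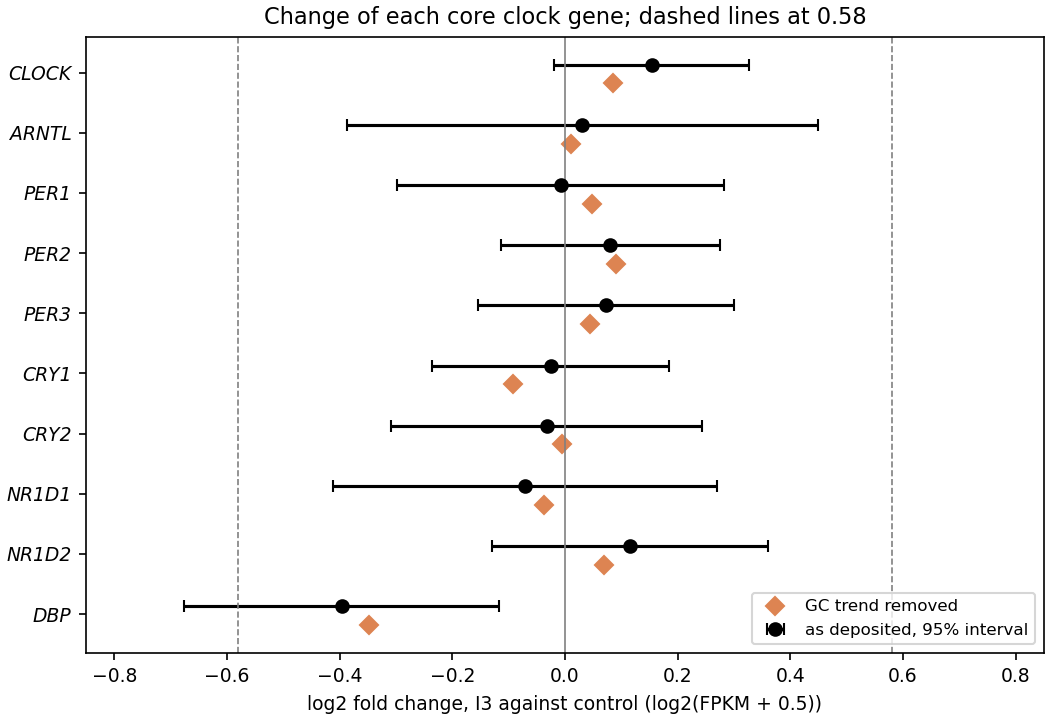
Log2 fold change of each core clock gene, I3 against control, with the 95% limma interval (black) and the value after removal of each library's GC trend (orange diamonds). Only the interval of DBP lies wholly to one side of 0, and only that interval crosses a dashed line, drawn at a log2 fold change of 0.58 in either direction.

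The levels of the 10 genes covered about an order of magnitude. CLOCK had the highest mean over the 6 libraries, 5.39 FPKM, followed by NR1D2 at 5.16, CRY1 at 4.88, CRY2 at 4.28, NR1D1 at 3.40, DBP at 3.38, PER2 at 2.93, PER3 at 1.60, PER1 at 1.11 and ARNTL at 0.562 FPKM. Even the highest was an ordinary level for these cells, with CLOCK at the 50.7 percentile of the tested genes, and ARNTL at the 2.73 percentile was close to the minimum for testing. Among the upper 7 genes neighbours in the order had overlapping ranges. CLOCK was above NR1D2 in 4 of 6 libraries, and NR1D1 was above DBP in 2 of 6. At the lower end the order held in every library, with PER2 above PER3, PER3 above PER1 and PER1 above ARNTL in 6 of 6 libraries and with ranges that did not overlap.

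The activator pair was measured at unequal depth. CLOCK, on chr4:55427903-55547138 (minus strand, hg38), encodes the partner that carries acetyltransferase activity. Its level was 5.20, 5.02 and 4.99 FPKM in the control libraries and 5.25, 5.82 and 6.03 FPKM in the I3 libraries. All I3 libraries were above all control libraries, although I3 1 exceeded control 1 by little. The means were 5.07 ± 0.114 FPKM in control and 5.70 ± 0.404 FPKM under I3 (SD, n = 3 each), a log2 fold change of 0.15 ± 0.074 (SE). The adjusted p of limma was 0.998 and the unadjusted p was 0.0741. Without I3 1 the unadjusted p was 0.0377 and the log2 fold change was 0.21, with an adjusted p of 1.00 by limma. CLOCK has the most GC-poor transcripts of the 10 genes, with 38.8% GC. After the GC trend of each library had been removed, the log2 fold change was 0.085 ± 0.087 (SE) and the groups overlapped.

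ARNTL, on chr11:13276652-13387266 (plus strand), encodes BMAL1, the partner whose own transcription REV-ERB receptors repress. Its level was 0.513, 0.535 and 0.595 FPKM in control and 0.726, 0.543 and 0.458 FPKM under I3. I3 1 was the highest of the 6 libraries and I3 3 was the lowest, so the control libraries lay inside the range of the I3 libraries. The means were 0.548 ± 0.0421 and 0.576 ± 0.137 FPKM (SD, n = 3 each), with a log2 fold change of 0.031 ± 0.18 (SE) and an adjusted p of 0.998 by limma. The gene rested on 403 rebuilt reads over the 6 libraries against 6768 for CLOCK. The ratio of ARNTL reads, I3 over control, was 1.05 with a 95% counting interval of 0.859 to 1.28. Such intervals cover counting error only.

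The PER genes, which encode the period proteins of the repressor complex, varied least in relation to the error of read counting. PER1, on chr17:8140472-8156506 (minus strand), is also an early response gene. Its level was 1.09, 1.08 and 1.18 FPKM in control and 1.07, 1.24 and 1.02 FPKM under I3. The I3 libraries lay on both sides of the control libraries. The log2 fold change was -0.0076 ± 0.12 (SE), with an adjusted p of 0.999 by limma, and its sign changed when the GC trend was removed (0.049).

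PER2, on chr2:238244038-238290102 (minus strand), was at 2.65, 2.96 and 2.89 FPKM in control and at 2.91, 3.20 and 2.97 FPKM under I3. The groups overlapped through I3 1, which was below control 2. The means were 2.83 ± 0.161 and 3.02 ± 0.150 FPKM (SD, n = 3 each), a log2 fold change of 0.081 ± 0.083 (SE) with an adjusted p of 0.998 by limma. After removal of the GC trend the 3 I3 libraries stood above the 3 control libraries, with a log2 fold change of 0.091 ± 0.066 (SE). Without control 1, the lowest library, the log2 fold change as deposited was 0.041.

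PER3, on chr1:7784320-7845177 (plus strand), is the least essential of the PER genes for the rhythm itself. It was at 1.503, 1.55 and 1.59 FPKM in control and at 1.68, 1.63 and 1.66 FPKM under I3. All I3 libraries were above all control libraries, by a small margin. The means were 1.55 ± 0.0459 and 1.66 ± 0.0237 FPKM (SD, n = 3 each), with a log2 fold change of 0.073 ± 0.097 (SE) and an adjusted p of 0.998 by limma. With the GC trend removed the log2 fold change was 0.045 and the groups overlapped, as they also did with median-of-ratios scaling (0.063). Of the PER3 exons, 10.7% lie over exons of UTS2 on the other strand, and UTS2 was at 1.47 to 3.00 FPKM. The libraries were stranded, but the sources used here do not say whether counting used the strand.

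For PER1 and PER2 the libraries of a group differed by about as much as read counting gives, and for PER3 by less. The chi-square of the rebuilt reads within the groups, divided by its degrees of freedom, was 0.854 for PER1, 1.02 for PER2 and 0.121 for PER3. For the other 7 genes it was 2.17 or more, with 7.26 for CRY2 and 6.08 for DBP. The balance within the family was also narrow, since PER2 exceeded PER1 by 2.43 to 2.91 times and PER3 by 1.74 to 1.96 times in every library. The ranges of both ratios in control and I3 libraries overlapped.

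The sequences before the starts of the PER genes are shown because they carry the letters through which the loop is known to act. The 250 bases upstream of each start in the RefSeq table (GRCh38.p14) were searched on both strands for the E-box CACGTG, the E-prime box CACGTT, the D-box TTATGTAA and the half-site AGGTCA bound by ROR and REV-ERB receptors. All 10 genes were matched, with 15 starts in all, and ARNTL is listed there as BMAL1. The capitals mark the match, and each window is written 5′ to 3′ on the strand of the gene. The PER1 window (chr17:8152531-8152589, minus strand, in an intron of a longer form) holds an E-box and, read on the other strand, a receptor half-site. The PER2 window (chr2:238288790-238288819, minus strand, also intronic for a longer form) holds an E-prime box, and the PER3 window (chr1:7784102-7784133, plus strand, upstream of the gene) holds a D-box.
PER1: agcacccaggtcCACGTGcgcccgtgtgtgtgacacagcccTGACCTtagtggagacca
PER2: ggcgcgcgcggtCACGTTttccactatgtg
PER3: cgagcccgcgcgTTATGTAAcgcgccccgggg

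Matches of this kind are common in the genome, and they are given as letters and not as sites in use. The E-box was found at 2 of the 15 clock gene starts (PER1 and NR1D2) and at 6.34% of all 35116 starts. The E-prime box was found at 5 of 15 (CLOCK, PER2, CRY1, CRY2 and NR1D1) and at 4.55% of all starts. The D-box was found at 2 of 15 (PER3 and NR1D2) and at 0.834%, and the half-site at 3 of 15 (PER1 and CRY2, which has it at more than one start) and at 12.1%. The windows of ARNTL and DBP hold none of these letters. On the log2 scale the E-box genes were at -0.0076 (PER1) and 0.12 (NR1D2), and the D-box genes at 0.073 (PER3) and 0.12 (NR1D2). The half-site genes were at -0.0076 (PER1) and -0.033 (CRY2). The E-prime box genes were at 0.15 (CLOCK), 0.081 (PER2), -0.025 (CRY1), -0.033 (CRY2) and -0.070 (NR1D1). Whether a match goes with a change was not tested.

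The CRY genes encode the cryptochromes, the stronger repressors of CLOCK and BMAL1. CRY1, on chr12:106991364-107093829 (minus strand), was at 5.28, 4.40 and 5.12 FPKM in control and at 4.55, 4.81 and 5.14 FPKM under I3. The I3 libraries lay inside the range of the control libraries. The means were 4.93 ± 0.472 and 4.83 ± 0.296 FPKM (SD, n = 3 each), with a log2 fold change of -0.025 ± 0.090 (SE) and an adjusted p of 0.998 by limma. Without control 1 the log2 fold change was 0.021, with the opposite sign.

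CRY2, on chr11:45847118-45883248 (plus strand), was at 3.65, 4.88 and 4.50 FPKM in control and at 3.84, 4.67 and 4.15 FPKM under I3. Here too the I3 libraries lay inside the range of the control libraries. The means were 4.34 ± 0.626 and 4.22 ± 0.419 FPKM (SD, n = 3 each), with a log2 fold change of -0.033 ± 0.12 (SE) and an adjusted p of 0.998 by limma. Without control 1 it was -0.14. The levels of CRY2 ran with the GC trend of the libraries. It was low in control 1, I3 1 and I3 3 and high in control 2, control 3 and I3 2, and its transcripts hold 58.4% GC against 39.1% for CRY1. The ratio of CRY2 to CRY1 was 0.692 in control 1 and 1.11 in control 2, both untreated, and 0.808 to 0.971 in the I3 libraries.

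NR1D1 and NR1D2 encode the REV-ERBα and REV-ERBβ receptors, which repress together with the NCOR corepressors and HDAC3. NR1D1, on chr17:40092787-40100725 (minus strand), was at 3.55, 3.95 and 2.95 FPKM in control and at 2.85, 4.03 and 3.03 FPKM under I3. Each group held a library near 4 FPKM and one near 3 FPKM. The means were 3.48 ± 0.506 and 3.31 ± 0.636 FPKM (SD, n = 3 each), with a log2 fold change of -0.070 ± 0.15 (SE) and an adjusted p of 0.998 by limma. Within the libraries of negative GC trend, where control 1 is the only control, the difference was -0.24, and within those of positive trend, where I3 2 is the only I3 library, it was 0.21. A stretch of 9.49% of the NR1D1 exons lies over exons of THRA on the other strand, and THRA was at 7.77, 10.04 and 9.35 FPKM in control and at 9.15, 9.39 and 8.32 FPKM under I3. The part of THRA reads in the NR1D1 values was not tested.

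NR1D2, on chr3:23945260-23980618 (plus strand), was at 5.79, 4.71 and 4.34 FPKM in control and at 5.44, 5.21 and 5.45 FPKM under I3. Control 1 was the highest of the 6 libraries, and the other control libraries were below all I3 libraries. The means were 4.95 ± 0.752 and 5.37 ± 0.133 FPKM (SD, n = 3 each), with a log2 fold change of 0.12 ± 0.10 (SE) and an adjusted p of 0.998 by limma. Without control 1 the log2 fold change was 0.22 ± 0.072 (SE) and the groups did not overlap. The unadjusted p of limma was 0.0201 and the adjusted p was 0.434. In that setting 4015 of all 12960 tested genes had groups that did not overlap. At an unadjusted p under 0.05, 946 of them all were higher and 474 lower. Without control 3 the log2 fold change was 0.035. The value of NR1D2 therefore rested on which control libraries were used.

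The promoter of NR1D1 holds an E-prime box upstream of the gene (chr17:40100740-40100769, minus strand). At the start of its shorter form, in an intron of the longer one, NR1D2 holds a D-box (chr3:23945915-23945946, plus strand) followed by a pair of E-boxes (chr3:23945954-23945983 and chr3:23946004-23946033), the densest group of matches among the 10 genes. The windows are shown with the matches in capitals, as above.
NR1D1: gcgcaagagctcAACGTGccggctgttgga
NR1D2 (D-box): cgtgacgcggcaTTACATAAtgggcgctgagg
NR1D2 (first E-box): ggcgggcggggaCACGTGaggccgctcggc
NR1D2 (second E-box): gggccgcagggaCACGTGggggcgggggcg

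The ratio of NR1D1 to ARNTL sets a repressor beside the gene it represses. It was 6.92, 7.39 and 4.96 in control and 3.93, 7.43 and 6.63 under I3. The I3 libraries held both the lowest and the highest ratio.

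DBP, the PAR-bZIP activator of D-box genes and a direct output of CLOCK and BMAL1, was the clock gene that differed most. It lies on chr19:48630030-48637438 (minus strand). Its level was 3.57, 4.40 and 3.75 FPKM in control and 3.08, 3.09 and 2.39 FPKM under I3. All I3 libraries were below all control libraries, with I3 3 lowest and control 2 highest. The means were 3.91 ± 0.432 and 2.85 ± 0.399 FPKM (SD, n = 3 each), a log2 fold change of -0.40 ± 0.12 (SE), or 0.760 times the control level with a 95% interval of 0.626 to 0.922. The unadjusted p was 0.0119, but with Benjamini-Hochberg adjustment over 12960 genes the adjusted p of limma was 0.816, so DBP did not pass the test. The exact permutation test gave a two-sided p of 0.1, the smallest that 3 against 3 samples allow. In RNA of whole cultures, a lower level in every cell and a smaller share of cells with the transcript cannot be told apart.

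The difference of DBP held its direction under every processing that was run, all of it on the same 6 libraries. Since its groups did not overlap, the direction was fixed in advance for each library left out and within each GC set. In 19 alternatives its log2 fold change was between -0.46 and -0.29 and its unadjusted p between 0.00311 and 0.0448, while the adjusted p was 0.423 to 1.00 in limma or voom. With the GC trend removed it was -0.35 ± 0.090 (SE), with an adjusted p of 0.653 by limma. Within the libraries of negative GC trend DBP differed by -0.34 on the log2 scale, I3 minus control, and within those of positive trend by -0.35, each with a single library in one of the groups and so without a test. Without control 1 the log2 fold change was -0.45. The reads behind it were 413, 512 and 430 in control and 359, 360 and 285 under I3. Their ratio was 0.729 with a counting interval of 0.672 to 0.792, while the libraries within a group differed by more than counting gives, as said above. Of the DBP exons, 10.1% lie over exons of SPHK2 on the other strand, which was at 2.02, 2.62 and 2.05 FPKM in control and at 1.81, 1.93 and 2.25 FPKM under I3, with overlapping groups.

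**Figure D2:**
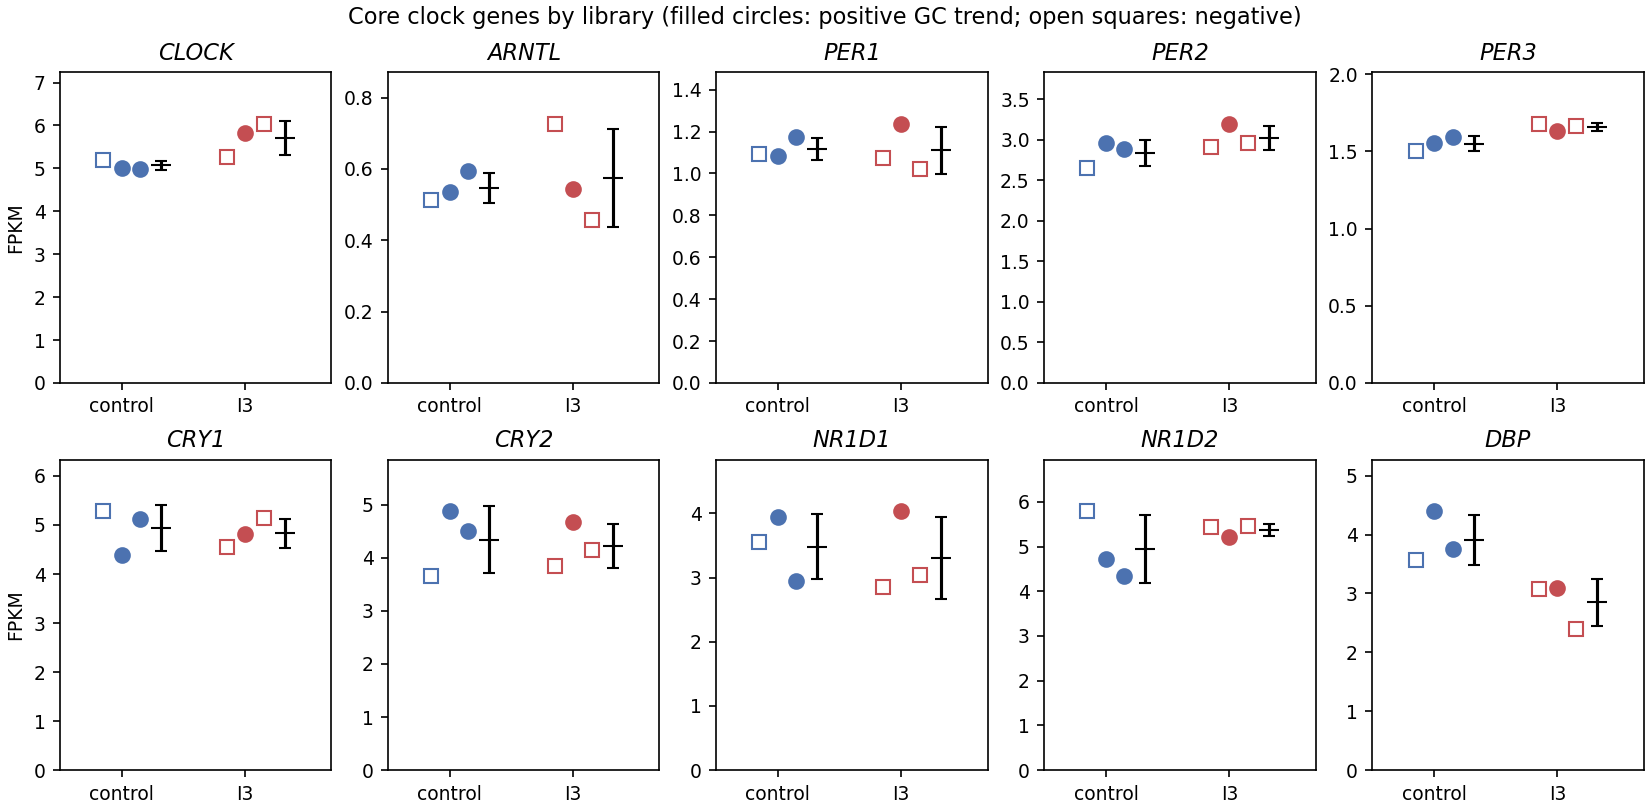
Level of each core clock gene in FPKM, with 1 point per library in the order of the replicate numbers and the mean ± SD of 3 libraries beside it. Filled circles are libraries with a positive GC trend and open squares those with a negative one. The I3 libraries lie wholly above the control libraries for CLOCK and PER3, wholly below them for DBP, and overlap them for the other 7 genes.

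Across the 10 genes, groups that did not overlap were found for 3, namely CLOCK and PER3, which were higher under I3, and DBP, which was lower. Of all tested genes 9.7% had groups that did not overlap. With the GC trend removed the count was 2, namely PER2, which was higher, and DBP, against 10.9% of all tested genes. DBP was the member found both times.

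The clock genes span a wide range of GC content, and their small deviations ran with the trend of some libraries. CLOCK, CRY1, NR1D2, PER3 and ARNTL hold 38.8% to 47.7% GC, and PER2, CRY2, NR1D1, DBP and PER1 hold 55.2% to 62.6%. The mean deviation of the 5 GC-rich genes minus that of the 5 GC-poor genes was -0.053, 0.22 and 0.061 (log2) in control 1, 2 and 3 and -0.14, 0.073 and -0.17 in I3 1, 2 and 3. It had the sign of the GC trend of the library in 6 of 6 libraries, but the relation was uneven. The rank correlation with GC content over the 10 genes was 0.84 in control 2 and -0.82 in I3 3, and only -0.13 in control 1 and 0.25 in I3 2. After removal the difference lay between -0.077 and 0.079, and in control 1 it was 0.058, no smaller in size than before.

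**Figure D3:**
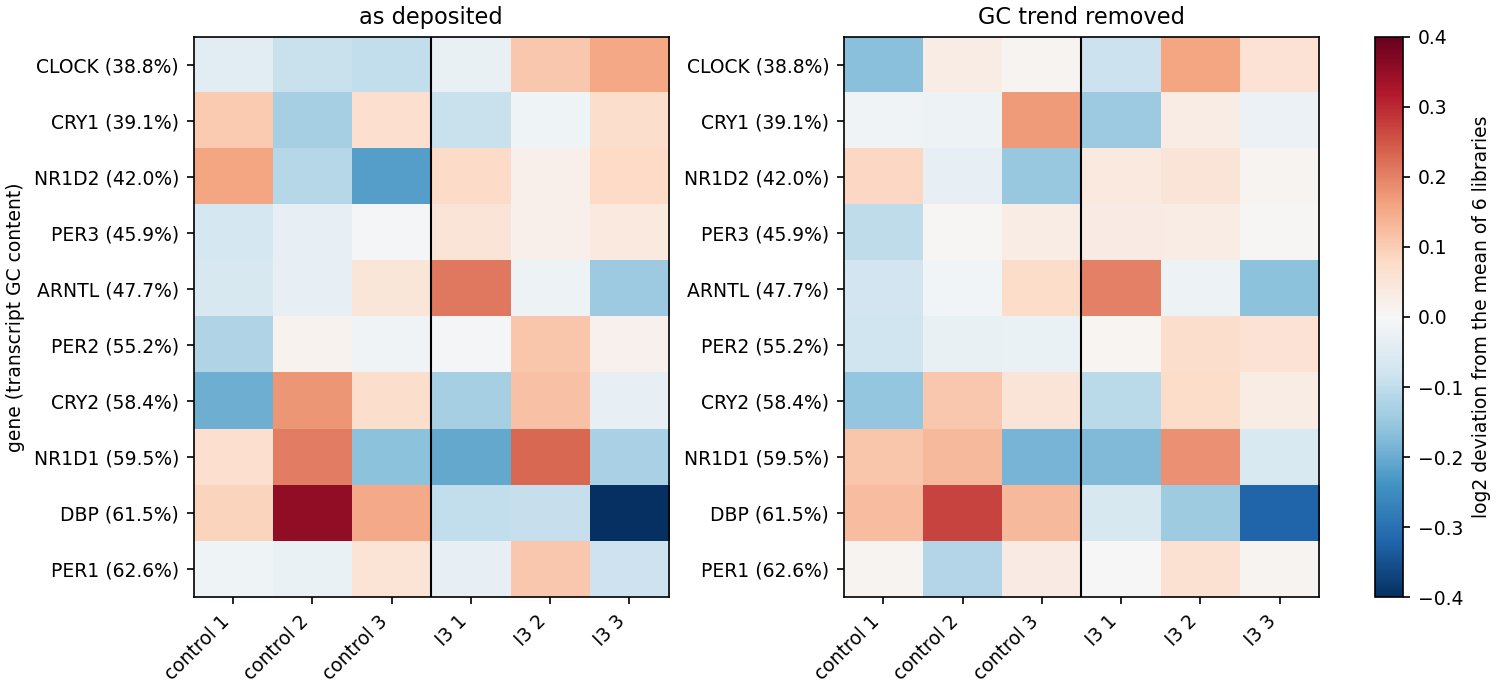
Deviation of each core clock gene in each library from its mean over 6 libraries, on the log2(FPKM + 0.5) scale, as deposited (left) and with the GC trend of the library removed (right), with the genes ordered by transcript GC content in percent. CRY2, NR1D1 and DBP are high in control 2 and below their mean in I3 3 on the left, and of the 10 rows that of DBP keeps the strongest contrast between control and I3 on the right.

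Genes around the core loop were examined through lists of 48 genes by role, of which 45 were listed and 38 were tested. Of these, 0 of 38 passed the adjusted test in limma or in voom, and neither tool passed any of the genes it tested. At an unadjusted p under 0.05, 0 of 38 were higher and 2 were lower, beside 4.93% of all tested genes in either direction, and the median log2 fold change was 0.021. Groups did not overlap for 3 of 38, beside 9.7% of all tested genes, and with the GC trend removed for 7 of 38, beside 10.9%. The 7 were KMT2A and USP2, higher under I3, and SKP1, SIRT1, NAMPT, WEE1 and NOCT, lower under I3. Of these, USP2, SKP1 and SIRT1 were named after their values were seen.

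Substitutes for the activators were unequal. ARNTL2, the paralog that can stand in for BMAL1, was at 4.63, 4.66 and 4.13 FPKM in control and at 4.55, 4.70 and 5.10 FPKM under I3, with overlapping groups and a log2 fold change of 0.087 ± 0.080 (SE). It was above ARNTL in every library. NPAS2, the paralog of CLOCK, was at or below 0.0183 FPKM in all libraries and was not tested.

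Other repressors and the competitors of the REV-ERB receptors were at low levels. BHLHE40, an E-box repressor, was at 3.50 FPKM in control 1 and at 1.29 to 1.61 FPKM in the other 5 libraries, so its log2 fold change of -0.28 ± 0.29 (SE) rested on a single control library. RORA, which activates ARNTL at the sites where REV-ERB represses it, was at or below 0.0626 FPKM. Of the ROR receptors 2 were listed and neither reached the minimum.

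The tested relatives of DBP had groups that overlapped. TEF, a PAR-bZIP activator like DBP, was at 5.99, 5.31 and 5.71 FPKM in control and at 5.43, 5.10 and 5.43 FPKM under I3, with a log2 fold change of -0.084 ± 0.072 (SE). NFIL3, which represses the same D-box, was at 1.33, 0.889 and 0.850 FPKM in control and at 1.104, 0.728 and 1.37 FPKM under I3, with a log2 fold change of 0.034 ± 0.21 (SE). HLF was at 0.153 to 0.391 FPKM and was not tested. Whether the change of DBP differed from that of TEF or NFIL3 was not tested.

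The machinery that acts on clock proteins had small differences in both directions. Of 8 tested clock protein kinases 5 had a positive and 3 a negative log2 fold change, and the smallest unadjusted p was that of PRKAA1, a catalytic subunit of AMPK, at 0.21 ± 0.11 (SE). Of 8 turnover genes 6 were positive and 2 negative, led by FBXW11, which helps to degrade PER proteins, at 0.082 ± 0.070 (SE). Of the genes in these lists, 0 had an unadjusted p under 0.05.

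Among 8 corepressors 3 were positive and 5 negative. HDAC3, the deacetylase that NR1D1 and NR1D2 recruit, was at 11.2, 14.6 and 12.7 FPKM in control and at 11.04, 14.3 and 12.7 FPKM under I3. Its log2 fold change was -0.015 ± 0.12 (SE), and the libraries with a low value were found in both groups. TBL1XR1, a subunit of the NCOR complex, had the smallest unadjusted p of this list, with a log2 fold change of 0.19 ± 0.15 (SE).

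Among 5 coactivators, with the deacetylase SIRT1 counted among them, 4 were positive and 1 negative. KMT2A, a histone methyltransferase that works with CLOCK and BMAL1, was at 13.4, 14.4 and 14.7 FPKM in control and at 15.3, 15.3 and 15.8 FPKM under I3, with groups that did not overlap and a log2 fold change of 0.13 ± 0.059 (SE). The adjusted p of limma was 0.998, and 17.9% of its exons are shared with a gene model on the same strand, so its reads are uncertain.

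Of 4 tested output genes 1 had a positive and 3 a negative log2 fold change, and the 2 genes at an unadjusted p under 0.05 were among them. WEE1, a kinase that holds cells before mitosis and a target of CLOCK and BMAL1, was at 8.43, 8.18 and 7.85 FPKM in control and at 7.49, 6.30 and 6.23 FPKM under I3. All I3 libraries were below all control libraries, with a log2 fold change of -0.27 ± 0.084 (SE) and an adjusted p of 0.845 by limma. NOCT, a rhythmic phosphatase, was named after its values were seen. It was at 10.9, 9.58 and 9.95 FPKM in control and at 9.17, 8.71 and 7.22 FPKM under I3, with a log2 fold change of -0.27 ± 0.099 (SE) and an adjusted p of 0.970 by limma. The other tested output genes, NAMPT at -0.089 ± 0.12 (SE) and PPARA at 0.023 ± 0.081 (SE), were likewise named after their values were seen and had overlapping groups. With the GC trend removed the groups of NAMPT did not overlap, with a log2 fold change of -0.14. In 19 alternatives WEE1 kept an unadjusted p under 0.05 in 19 and NOCT in 16. The alternatives reused the same 6 libraries, and WEE1 was named as the gene of smallest unadjusted p of its list. The groups of WEE1 and NOCT did not overlap, so their direction was fixed in advance for each library left out.

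**Figure D4:**
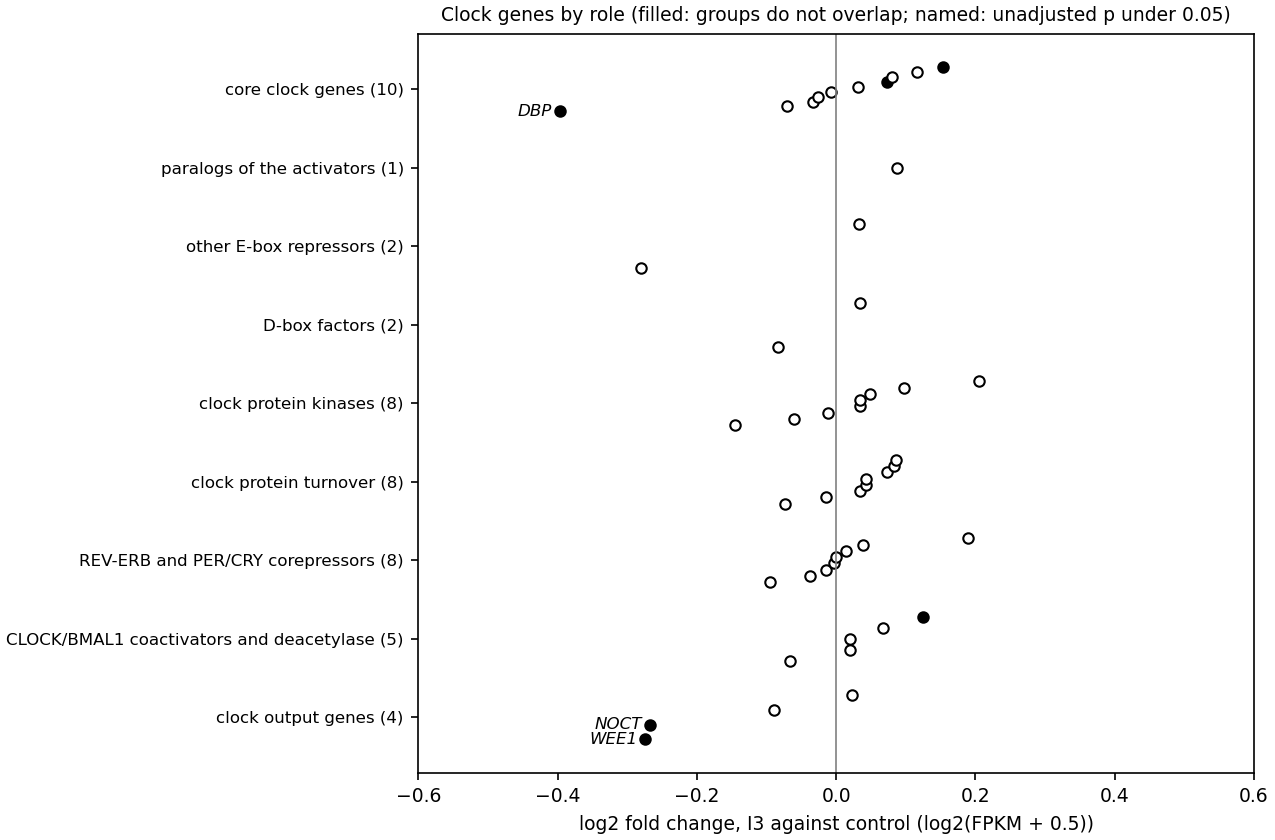
Log2 fold change, I3 against control, of the 10 core clock genes and the 38 tested genes around them, with 1 row per role and the number tested in brackets; each point is a gene. Filled points are genes whose groups do not overlap, and the genes with an unadjusted p under 0.05 (DBP, WEE1 and NOCT) all lie to the left of 0.

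The other genes whose exons overlap those of a clock gene were at low levels or share little sequence. TMEM165, at 32.7 to 46.4 FPKM, shares 0.646% of the CLOCK exons on the other strand, and AC024243.1 was at or below 0.361 FPKM. AC012485.1, over 2.73% of the PER2 exons, was at or below 0.0289 FPKM, and Z98884.1, over 5.95% of the PER3 exons, was at or below 0.135 FPKM. MIR6883 and AC129492.3 lie over PER1 and AC078929.1 over CRY1, and their values were not analysed here.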

How the data were processed

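mRNA-seq of 6 Kasumi-1 libraries was analysed, 3 control and 3 I3, grouped by the sample labels. The authors made stranded libraries of polyadenylated RNA and deposited FPKM values per gene and library. The submitters' processing notes name Trimmomatic, HISAT2, Cufflinks, HTSeq and hg38, and the methods name DESeq. Neither the annotation nor the use of strand in counting is stated in the sources used here. No value column was left out.

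Identifiers were matched to GENCODE release 29 (29703 of 29810 genes). FPKM multiplied by exon length gave whole reads, within 0.1 read, in all 6 libraries for 95.4% of the 26609 genes above 0, which gave the depth. Since the unit is FPKM, limma 3.58.1 (R 4.3.3) was used in place of a count model, with lmFit and a trended eBayes. It was fitted to log2(FPKM + 0.5) of the 12960 genes whose mean reached 0.5 FPKM, two-sided, without covariates, with Benjamini-Hochberg adjustment over all of them. A gene passed at an adjusted p under 0.05 and an absolute change of 0.58 (log2), both taken from the methods. Exact permutation tests used scipy 1.17.1, tables pandas 2.3.3 in Python 3.11.15 and plots matplotlib 3.10.9. Counting intervals are for 95%. The fits were tested on simulated data with known changes.

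The clock genes and the lists around them were chosen with earlier results of these data known. Named genes were all 10 clock genes, the gene of smallest unadjusted p of each list, NPAS2, ARNTL2, BHLHE40, RORA, NFIL3, TEF, HLF and HDAC3, and genes whose exons overlap a clock gene. Alternatives were pseudocounts of 0.1 and 1, no minimum and a minimum of 1 FPKM, scaling by median of ratios, quantile normalization, conversion to TPM, eBayes without trend, a replicate block, removal of the GC trend (lowess, span 0.3) with and without that block, voom on the rebuilt reads (mean of 10 or more), and each library left out. The set of libraries with the same GC trend as a term was added after the data had been seen. Promoter sequences came from RefSeq (GRCh38.p14).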

Additional observations from a re-analysis of the deposited data

How the results depend on the processing

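In 19 alternatives, 18 planned and 1 added, 0 of 10 core clock genes passed the adjusted test, and the smallest adjusted p of any was 0.423 (DBP without control 1). Of 189 single-gene values 173 kept their sign and 16 changed it, none beyond 0.067 on the log2 scale. The sign changed for ARNTL under quantile normalization (-0.015), for PER1 with the GC trend removed, with or without the replicate block (0.049), and for PER1 (0.026) and CRY2 (0.054) with the GC set as a term. With each library left out in turn, ARNTL ranged from -0.067 to 0.11, CRY1 from -0.099 to 0.021, CRY2 from -0.14 to 0.047, NR1D1 from -0.20 to 0.015 and PER1 from -0.063 to 0.033. The number of core clock genes at an unadjusted p under 0.05 was then 1 to 2, with NR1D2 added without control 1 and CLOCK added without I3 1. Among the wider genes it was 1 to 4 beside 2 in all libraries, with 4 without control 1 and 1 without control 3 or without I3 3. Over all 12960 tested genes 946 were higher and 474 lower at that level without control 1, and 196 and 400 without I3 1. Without control 3 these counts were 202 and 287, and without I3 3 they were 231 and 238. In all libraries they were 269 and 370. The cause of these changes was not tested. ARNTL could not be tested at a minimum of 1 FPKM. The labels do not say whether the replicate numbers pair the samples. The correlations of same-numbered libraries were 0.063, 0.15 and -0.024. Those of differently numbered libraries ran from -0.17 (control 1 with I3 2) to 0.10 (control 1 with I3 3). Whether the samples were paired cannot be told from these values. With the replicate block 1 core clock gene, DBP (-0.40), stayed at an unadjusted p under 0.05, and over all genes 363 were higher and 493 lower at that level, beside 269 and 370 without it. Over all genes limma called 0 in all libraries, 1 higher without control 1, 2 lower without I3 1 and 1 lower without I3 2, none of them a clock gene. Of the 10 core clock genes, ARNTL with 403 and PER1 with 832 had the fewest rebuilt reads over all libraries. How far depth limits their values was not tested.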
